A study of Mus musculus with 15 samples.

Results

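The comparison was between resting splenic B cells of ELL2 conditional knockout (ELL2 cko) mice and those of wild type (WT) mice. It covered 8 of the 15 arrays of the series, 4 ELL2 cko and 4 WT, taken as the arrays whose titles name no LPS. Each array held RNA of B cells isolated on MACS columns from the spleen of 1 C57BL/6 mouse, and these cells were processed at once, with no culture and no agent (0 h of LPS). The other 7 arrays of the series were from cells kept for 72 h with LPS, 3 of them ELL2 cko and 4 WT, and entered 1 alternative fit only. The labels write the genotypes as ELL2 -/- cko and wild type. They do not name the promoter that drives the recombinase, the deleted exon, or whether the WT mice carried a floxed allele or a recombinase. The platform measures single exon regions and single exon junctions, and the value of a gene was the median of the exon regions annotated to that gene symbol alone, on the log2 scale. A difference of 1 on this scale is a factor of 2.

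ELL2 is an elongation factor of RNA polymerase II. It works in the super elongation complex beside the AFF scaffold proteins and the kinase pair of CDK9 and cyclin T. It is best known in the B lineage for antibody-secreting cells, where it favours the poly(A) site that gives the secreted form of the immunoglobulin heavy chain. A resting B cell has left the cell cycle, carries IgM and IgD on its surface and secretes little antibody, and a germinal centre B cell is its dividing, class-switching counterpart during an immune response.

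The 4 ELL2 cko arrays were not alike. Replicates 1 and 2 carried T cell and neutrophil RNA, and replicates 3 and 4 did not. The mean of 22 measured T cell genes was 10.26 and 10.05 in ELL2 cko replicates 1 and 2 and 5.33 and 5.34 in replicates 3 and 4, against 5.34 to 5.55 in the WT arrays. The mean of 19 neutrophil genes was 9.57 and 9.14 in ELL2 cko replicates 1 and 2 and 4.29 and 4.22 in replicates 3 and 4, against 4.24 to 4.49 in WT. Cd3e, a chain of the T cell receptor complex, stood at 13.00 and 12.37 in the first pair and at 3.98 and 4.07 in the second, against 3.93 to 4.72 in WT. Background rows of the table had medians of 3.02 to 3.24, and the median gene in WT stood at 5.06. Correlations of gene values between arrays were 0.9866 or higher among ELL2 cko replicates 3 and 4 and the WT arrays, and between 0.9652 and 0.9696 when ELL2 cko replicate 1 or 2 was set against any of these 6. Cd79a, a signalling chain of the B cell receptor, was high in all 8 arrays, at 13.82 and 14.03 in ELL2 cko replicates 1 and 2 and 15.97 and 15.80 in replicates 3 and 4, against 15.76 to 16.04 in WT. In bulk RNA, fewer B cells and less of a B cell transcript in each cell cannot be told apart. Results are therefore given for replicates 3 and 4 first, and then for all 4. Xist and the Y-linked genes Kdm5d, Uty and Eif2s3y placed ELL2 cko replicate 3 and WT replicates 3 and 4 with males and the other 5 arrays with females, so replicates 3 and 4 and the WT group each held both sexes.

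No gene passed the test in either comparison. With ELL2 cko replicates 3 and 4 against 4 WT arrays, limma with Benjamini-Hochberg adjustment over 31265 genes called 0 genes at an adjusted p of 0.05. The lowest adjusted p was 0.0546, shared by Ighg2c, Ighg2b, Ada, Foxm1 and Kif11, and 2399 genes (7.67%) had an unadjusted p under 0.05, 1595 of them higher in ELL2 cko and 804 lower. Ada, adenosine deaminase, is named after its values were seen. It was at 8.20 and 7.62 in replicates 3 and 4 and 6.68 and 6.61 in replicates 1 and 2, against 6.11, 5.89, 5.95 and 6.24 in WT (1.87 ± 0.19). Of 50 genes with an adjusted p under 0.1, 49 were higher in ELL2 cko. With all 4 ELL2 cko arrays the count was again 0, the lowest adjusted p was 0.0621, and 2779 genes (8.89%) had an unadjusted p under 0.05. In simulated data of the same size with 200 changed genes, 36% of genes changed by 1 log2 unit were recovered with 2 against 4 arrays. The share was 85% for changes of 2 units, and 71.5% and 95% with 4 against 4. Every simulated array took the spread of the WT arrays and held no RNA of other cells. The shares for 4 against 4 therefore do not cover the wider spread that replicates 1 and 2 bring to the real comparison. Every difference given here is thus a measured value that did not pass the adjusted test. Both ELL2 cko replicates 3 and 4 lay above all 4 WT arrays for 9.62% of all genes and below them for 7.92%. Among genes at or above the median gene, 14.3% lay above. Counts of members of a list are read against these shares. The alternative settings called 0 to 83 genes for replicates 3 and 4, among them 71 without WT replicate 4 and 29 without WT replicate 1. The p-values set a mean difference against the spread between mice within groups. That spread is pooled over both groups, here 2 and 4 or 4 and 4 arrays, and drawn by limma towards the spread of all genes.

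The targeted gene was first checked. The gene value of Ell2 was 10.38, 9.78, 10.75 and 11.17 in ELL2 cko replicates 1 to 4, against 11.07, 10.87, 11.08 and 11.10 in WT. ELL2 cko replicate 4 lay above all WT arrays, and the difference of replicates 3 and 4 from WT was -0.07 ± 0.16 (SE, n = 2 and 4, adjusted p = 0.961 by limma). The median over 15 exon regions therefore showed no loss. Single rows of the gene did. Exon region PSR1300005919 stood at 8.98, 7.96, 10.06 and 9.35 in the 4 ELL2 cko arrays, against 13.13, 13.08, 12.91 and 12.96 in WT. Junction JUC1300003129 stood at 8.58, 7.88, 7.25 and 7.64 in ELL2 cko, against 12.87, 11.78, 11.80 and 12.01 in WT. In both rows all 4 ELL2 cko arrays lay far below every WT array, including replicates 1 and 2.

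For replicates 3 and 4 the exon region was lower by 3.31 ± 0.25 log2 units, a factor of 9.94, and the junction by 4.68 ± 0.34, a factor of 25.5 (SE, n = 2 and 4). Among 580167 rows tested these were the rows with the third and second smallest p, each with an adjusted p of 0.232 by limma. With all 4 ELL2 cko arrays the differences were -3.93 ± 0.39 and -4.28 ± 0.34, both with an adjusted p of 0.206, and the junction had the smallest p of all rows. Of the 27 rows of Ell2 (15 exon regions and 12 junctions), 6 lay below all WT arrays in all 4 ELL2 cko arrays, against 1.98% of all rows. The same 6 were the rows in which replicates 3 and 4 lay below all WT arrays, against 7.26% of all rows. The other 4 of these 6 were JUC1300003130 at -2.0, PSR1300005918 at -1.29, PSR1300005920 at -0.89 and JUC1300003128 at -0.57 in the difference of replicates 3 and 4 from WT. Exon region PSR1300005918 still stood at 14.00, 13.59, 13.62 and 13.99 in ELL2 cko, against 14.86, 15.05, 15.43 and 15.03 in WT. In the other direction, 10 rows lay above all WT arrays in ELL2 cko replicates 3 and 4. The largest was PSR1300005928, at 12.61 and 12.65 in these replicates against 11.14, 11.35, 11.83 and 11.21 in WT, a difference of 1.25 ± 0.25 (adjusted p = 0.415 by limma). The other 11 rows overlapped WT. Positions of the rows along the gene were not used here, and rows outside the deleted part cannot check the deletion. The 10 nearest neighbours of Ell2 on chromosome 13 that have a value, among them Erap1, Cast and Glrx, differed by -0.25 to 0.25.

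**Figure D1:**
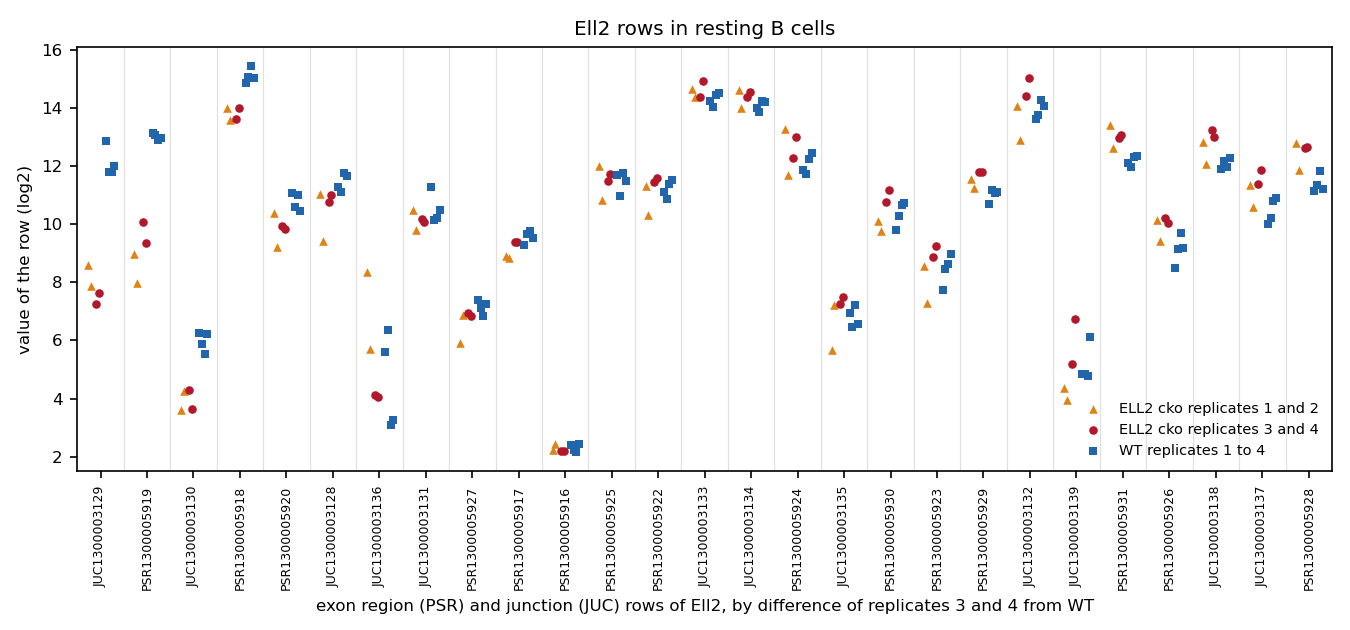
Values (log2) of the 27 Ell2 rows, one column per row, in ELL2 cko replicates 1 and 2 (triangles), ELL2 cko replicates 3 and 4 (circles) and the 4 WT arrays (squares), each point 1 array. Rows run from the largest negative to the largest positive difference of replicates 3 and 4 from WT; in PSR1300005919 and JUC1300003129 all 4 ELL2 cko arrays are at 10.06 or lower and all WT arrays at 11.78 or higher.

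The partners of ELL2 in transcription differed in both directions, by less than 1 log2 unit. Of 15 measured genes of the super elongation complex and its EAF partners, 4 lay above all WT arrays in ELL2 cko replicates 3 and 4 and 3 below. All 15 stood at or above the median gene in WT, and of genes at that level 14.3% lay above. Of all genes, 9.62% lay above and 7.92% below. The median difference of the list was -0.07, beside -0.00 for all genes. Eaf2, an ELL-associated factor, was the member with the largest difference, at 8.17 and 7.92 in replicates 3 and 4 against 6.82, 6.83, 7.61 and 7.51 in WT (0.85 ± 0.26, adjusted p = 0.435). Aff3, a member of the AFF family, was at 11.74 and 11.52 against 11.76 to 12.14 in WT (-0.35 ± 0.15, adjusted p = 0.655 by limma). The paralogues did not stand apart: Ell was at 9.23 and 9.14 in replicates 3 and 4 against 7.87 to 9.17 in WT, and Ell3 at 6.94 and 7.40 against 6.89 to 7.38 in WT. In ELL2 cko replicates 1 and 2 Ell was at 7.64 and 7.20, below all WT arrays, and Eaf2 at 6.56 and 7.08. Of 28 further genes of polymerase II elongation, 7 lay above all WT arrays in replicates 3 and 4 and 0 below, with a median difference of 0.24. Among these 28, 27 stood at or above the median gene in WT, and of genes at that level 14.3% lay above. The 7 included the elongin subunits Eloc (0.71 ± 0.21, adjusted p = 0.431) and Elob (0.65 ± 0.18, adjusted p = 0.375).

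Constant genes of class-switched immunoglobulin held the 2 largest differences of all genes between ELL2 cko replicates 3 and 4 and WT. Ighg2b, the constant gene of IgG2b, stood at 14.44 and 14.42 in ELL2 cko replicates 3 and 4 and 13.95 and 13.37 in replicates 1 and 2, against 10.59, 10.58, 10.70 and 11.83 in WT. All 4 ELL2 cko arrays lay above all 4 WT arrays. The difference of replicates 3 and 4 was 3.51 ± 0.33 log2 units, a factor of 11.4 (SE, n = 2 and 4, adjusted p = 0.0546 by limma). With all 4 ELL2 cko arrays its adjusted p was 0.0621. Ighg2c, the constant gene of IgG2c, was measured by 2 exon regions, fewer than the 3 asked of genes named by size, and Ighg2b by 8. Ighg2c stood at 12.83 and 12.33 in replicates 3 and 4, 9.12 and 9.0 in replicates 1 and 2, and 7.89, 7.36, 8.19 and 9.10 in WT. Here replicates 3 and 4 stood alone, with a difference of 4.44 ± 0.41, a factor of 21.7 (adjusted p = 0.0546), while replicate 2 lay below WT replicate 4. Both genes passed the threshold in 9 of 18 alternative settings. WT replicate 4 was the highest WT array for both. Without it the differences were 3.81 and 4.77 and the adjusted p values 0.000369 and 0.00231. Without WT replicate 1 both had an adjusted p of 0.0309. Neither passed without WT replicate 2 (0.249 for Ighg2b and 0.184 for Ighg2c), WT replicate 3 (0.146 for both), ELL2 cko replicate 3 (0.474 for both) or ELL2 cko replicate 4 (0.5 for both), with differences of 3.39 to 3.51 for Ighg2b and 4.18 to 4.70 for Ighg2c. A junction of Ighg2b, JUC1200010278, was at 12.28 and 12.65 in replicates 3 and 4 and 7.09 and 7.77 in replicates 1 and 2, against 5.50, 4.93, 6.33 and 6.97 in WT. The Ighg2b and Ighg2c genes are alike in sequence, and whether RNA of one also reads on probes of the other was not tested.

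Ighg3, the constant gene of IgG3, was at 11.07 and 11.70 in replicates 3 and 4 and 12.18 and 12.20 in replicates 1 and 2, against 10.66, 9.98, 9.39 and 9.94 in WT. Its 4 ELL2 cko arrays were all above WT, by 1.39 ± 0.32 for replicates 3 and 4 (adjusted p = 0.267). Igha (IgA, 2 exon regions) was at 7.61 and 7.52 in replicates 3 and 4 against 5.30 to 7.03 in WT, and Ighe (IgE) at 6.11 and 5.63 against 4.60 to 5.33. Replicates 1 and 2 were higher still for Igha (11.04 and 9.63) and Ighe (8.31 and 9.01). In all, 5 of 10 measured constant genes lay above all WT arrays in replicates 3 and 4, and 1, Ighg1, lay below. In WT 9 of the 10 stood at or above the median gene, and of genes at that level 14.3% lay above. Of all genes, 9.62% lay above and 7.92% below. Ighg1, the constant gene of IgG1 (1 exon region), was at 5.52 and 5.40 in replicates 3 and 4 against 5.54 to 5.65 in WT. The constant genes of resting B cells showed no such gap. Ighm, the constant gene of IgM, was at 19.49 and 19.38 in replicates 3 and 4 against 19.43 to 19.74 in WT, where the table's maximum is 19.93. Ighd, the constant gene of IgD, was at 14.25 and 13.65 against 13.76 to 14.68 in WT, and at 10.84 and 11.40 in ELL2 cko replicates 1 and 2. The light chain gene Iglc2 was at 17.67 and 17.54 against 17.53 to 17.87 in WT.

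**Figure D2:**
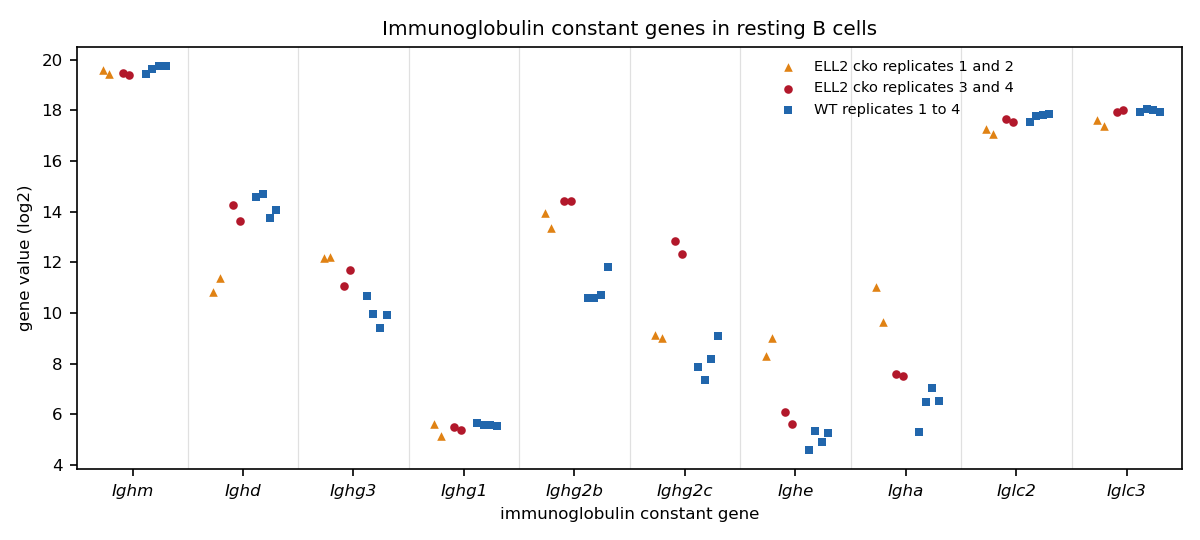
Gene values (log2) of 10 immunoglobulin constant genes in ELL2 cko replicates 1 and 2 (triangles), ELL2 cko replicates 3 and 4 (circles) and WT (squares), each point 1 array. Ighg2b lies between 13.37 and 14.44 in ELL2 cko and between 10.58 and 11.83 in WT, and Ighg2c is at 12.33 and 12.83 in ELL2 cko replicates 3 and 4 and at 9.12 or lower in the other 6 arrays.

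Some genes of antibody-secreting cells were higher, while the median of the list was near WT. Of 28 measured, 7 lay above all WT arrays in replicates 3 and 4 and 1 below, where 9.62% and 7.92% of all genes did. In WT 27 stood at or above the median gene, and of genes at that level 14.3% lay above. In all 4 ELL2 cko arrays 5 of the 28 lay above, where 2.86% of all genes did, and replicates 1 and 2 carried RNA of other cells. The median difference of replicates 3 and 4 was 0.09. Slpi, a secreted protease inhibitor, was the largest, at 7.24 and 7.67 in replicates 3 and 4 against 5.83, 5.38, 5.78 and 6.23 in WT (1.65 ± 0.23, adjusted p = 0.0831). It was at 11.72 and 11.36 in ELL2 cko replicates 1 and 2. Sub1, a transcription coactivator, was at 12.67, 12.43, 12.53 and 12.48 in the 4 ELL2 cko arrays against 11.60, 11.74, 11.65 and 12.07 in WT (0.74 ± 0.16 for replicates 3 and 4, adjusted p = 0.229). The plasma cell regulators Prdm1 (6.12 and 6.17 against 5.77 to 6.47 in WT), Xbp1 (10.47 and 10.41 against 9.78 to 10.75) and Irf4 (11.67 and 11.61 against 11.46 to 11.82) lay within the WT range. Jchain, which joins IgM and IgA into polymers, was at 13.43 and 13.23 in replicates 3 and 4, and WT itself spanned 10.03, 13.03, 14.75 and 15.00. Of 40 genes of the unfolded protein response, 7 lay above all WT arrays in replicates 3 and 4 and 0 below (median 0.16). All 40 stood at or above the median gene in WT, and of genes at that level 14.3% lay above. Among the 7 were the translocon subunit Sec61b (0.61 ± 0.17, adjusted p = 0.392) and the disulfide isomerase Pdia6 (0.60 ± 0.20, adjusted p = 0.482).

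The cell cycle list had the largest share of members above WT of the 31 lists. In ELL2 cko replicates 3 and 4, 36 of 40 measured genes lay above all 4 WT arrays and 0 below, where 9.62% of all genes lay above. In WT 39 of the 40 stood at or above the median gene, and of genes at that level 14.3% lay above. The median difference of the list was 1.01, beside -0.00 for all genes. Of the 40, 36 had an unadjusted limma p under 0.05, beside 7.67% of all genes. The list mean was 8.63 and 8.49 in replicates 3 and 4 and 7.57 and 7.53 in replicates 1 and 2, against 7.45, 7.37, 7.32 and 7.82 in WT. The median difference of replicates 1 and 2 from WT was 0.04, and 7 of the 40 lay above all WT arrays in all 4 ELL2 cko arrays, where 2.86% of all genes did. The higher values were thus those of replicates 3 and 4. WT replicate 4 was the highest WT array, and without it 37 of 40 lay above WT in replicates 3 and 4 and 1 below, where 13.6% of all genes lay above.

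Kif11, a kinesin that separates the spindle poles, shared the lowest adjusted p of the list with Foxm1. It stood at 9.61 and 9.74 in ELL2 cko replicates 3 and 4 and 7.07 and 8.13 in replicates 1 and 2, against 7.63, 7.70, 7.34 and 8.13 in WT. The difference for replicates 3 and 4 was 1.97 ± 0.21, a factor of 3.92 (adjusted p = 0.0546 by limma), and 7 of 18 alternatives called it. A junction of Kif11, JUC1900002508, had the smallest p of all rows, at 8.72 and 8.80 in replicates 3 and 4 against 5.83, 5.77, 6.01 and 5.82 in WT (adjusted p = 0.232). Mki67, which coats mitotic chromosomes and marks dividing cells, was at 14.11 and 13.47 in replicates 3 and 4 and 11.92 and 11.80 in replicates 1 and 2, against 11.65, 11.33, 10.98 and 12.35 in WT (2.21 ± 0.35, a factor of 4.63, adjusted p = 0.106). Without WT replicate 4 the adjusted p of Mki67 was 0.0274 and that of Kif11 was 0.0147, and without WT replicate 1 they were 0.0641 and 0.0351. Leaving out any of the other 4 arrays gave adjusted p values of 0.207 to 0.584 for Mki67 and 0.146 to 0.518 for Kif11. Cdk1, the kinase that starts mitosis, was at 7.25 and 7.36 in replicates 3 and 4, against 5.11, 5.30, 5.08 and 6.25 in WT (1.87 ± 0.31, adjusted p = 0.109). Plk1, a mitotic kinase, was at 9.65 and 9.69 in replicates 3 and 4, against 6.80, 6.82, 7.10 and 8.81 in WT (2.29 ± 0.51, adjusted p = 0.231). WT replicate 4 stood apart from the other WT arrays for Plk1, at 8.81.

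Some members that act in DNA replication lay above all WT arrays too. Mcm6, a subunit of the replicative helicase, was at 10.59 and 10.22 in replicates 3 and 4 against 8.88 to 9.46 in WT (1.24 ± 0.19, adjusted p = 0.0952). Ccne2, a cyclin of the start of S phase, was at 6.64 and 6.56 against 5.54 to 5.74 in WT (0.97 ± 0.13, adjusted p = 0.0831). Foxm1, a transcription factor of mitotic genes, and Top2a are named after their values were seen. Foxm1 was at 8.11 and 8.04 against 6.65 to 6.90 in WT (1.30 ± 0.14, adjusted p = 0.0546). Top2a, the topoisomerase that untangles replicated DNA, was at 10.21 and 10.18 against 8.16 to 8.78 in WT (1.78 ± 0.19, adjusted p = 0.0558). The 4 members without a gap were Ccnd3, Tk1, E2f1 and Kif20a, and Tk1, a thymidine kinase, was at 9.17 and 9.30 against 8.81 to 9.73 in WT. Ccnb1 was not analysed here. The replication-dependent histone genes H2ac15 (10.50 and 10.37 against 7.49 to 8.79 in WT) and H2ac20 (9.26 and 8.90 against 6.28 to 7.64) were 2 of the 10 higher genes named by size, at 2.25 ± 0.37 (adjusted p = 0.107) and 1.99 ± 0.33 (adjusted p = 0.111). Histone genes of 1 family are near copies of each other, and their probes may share RNA.

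Upstream sequences of Kif11, Mki67 and Cdk1 are shown as examples of windows that hold both of the motifs described here, which most windows of the list do not. The windows are the 250 bases before the annotated start, from RefSeq on GRCm38.p6, 5′ to 3′ on the strand of the gene. Capitals mark CCAAT or its reverse ATTGG, the box bound by NF-Y, and TTTGAA or its reverse TTCAAA, the cell cycle homology region. They are Kif11 (chr19:37376132-37376381, plus strand), Mki67 (chr7:135716380-135716629, minus strand) and Cdk1 (chr10:69352913-69353162, minus strand).
Kif11: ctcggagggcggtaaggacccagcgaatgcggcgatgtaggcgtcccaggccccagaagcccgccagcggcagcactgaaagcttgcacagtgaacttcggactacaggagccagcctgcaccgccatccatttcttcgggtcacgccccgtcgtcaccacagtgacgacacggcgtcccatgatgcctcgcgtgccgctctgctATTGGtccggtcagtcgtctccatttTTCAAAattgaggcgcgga
Mki67: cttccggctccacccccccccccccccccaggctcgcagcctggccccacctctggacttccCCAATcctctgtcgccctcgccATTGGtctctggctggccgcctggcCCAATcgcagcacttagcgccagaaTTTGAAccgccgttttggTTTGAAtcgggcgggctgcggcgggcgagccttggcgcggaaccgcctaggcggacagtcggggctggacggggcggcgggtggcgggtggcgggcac
Cdk1: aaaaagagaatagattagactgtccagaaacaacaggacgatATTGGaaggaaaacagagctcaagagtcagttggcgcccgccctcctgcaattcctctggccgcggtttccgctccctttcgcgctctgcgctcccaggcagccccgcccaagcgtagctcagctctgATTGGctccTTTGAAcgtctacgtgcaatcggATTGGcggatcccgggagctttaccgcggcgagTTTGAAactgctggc
CCAAT on either strand was in 26 of 35 promoter windows of cell cycle genes (74.3%), beside 33.8% of 32851 promoters of the same length. TTTGAA on either strand was in 10 of the 35 (28.6%), beside 16% of all promoters. The window of Plk1 held 1 CCAAT and 0 TTTGAA. A match describes the letters of the window and is not a test of binding.

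Germinal centre genes were higher in the same 2 arrays. Of 11 measured, 7 lay above all WT arrays in ELL2 cko replicates 3 and 4 and 0 below, where 9.62% of all genes lay above. In WT 9 of the 11 stood at or above the median gene, and of genes at that level 14.3% lay above. The median difference was 1.19, and in replicates 1 and 2 it was -0.08. Mybl1 (A-Myb), a transcription factor of germinal centre B cells, stood at 10.34 and 10.26 in replicates 3 and 4 and 7.62 and 7.71 in replicates 1 and 2, against 7.50, 7.42, 7.27 and 9.18 in WT (2.46 ± 0.48, adjusted p = 0.17). S1pr2, a sphingosine phosphate receptor that holds cells in the germinal centre, was at 8.42 and 8.0 in replicates 3 and 4 against 6.24, 6.58, 6.00 and 7.27 in WT (1.69 ± 0.32, adjusted p = 0.154). Gcsam, a signalling adaptor of germinal centre cells, was at 8.20 and 7.89 against 5.04, 5.39, 5.92 and 7.59 in WT (2.06 ± 0.60, adjusted p = 0.418). WT replicate 4 was the highest WT array for each of these genes and lay closer to ELL2 cko replicates 3 and 4 than to the other WT arrays for Gcsam and Mybl1.

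The list mean was 8.23 and 7.81 in replicates 3 and 4 and 6.72 and 6.73 in replicates 1 and 2, against 6.54, 6.66, 6.67 and 7.50 in WT. Without WT replicate 4, 8 of 11 lay above WT in replicates 3 and 4 and the median difference was 1.36. Without it, Mybl1 passed the threshold at an adjusted p of 0.00198 with a difference of 2.90. Leaving out any of the other 5 arrays gave 0.136 to 0.795. Bcl6, the master regulator of the germinal centre, had no gap, at 9.48 and 8.96 in replicates 3 and 4 against 8.44 to 9.39 in WT. Mki67 belongs to both the cell cycle and the germinal centre list. Whether the immunoglobulin, cell cycle and germinal centre values come from a few cells with high levels or from many with small ones cannot be told apart in bulk RNA.

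**Figure D3:**
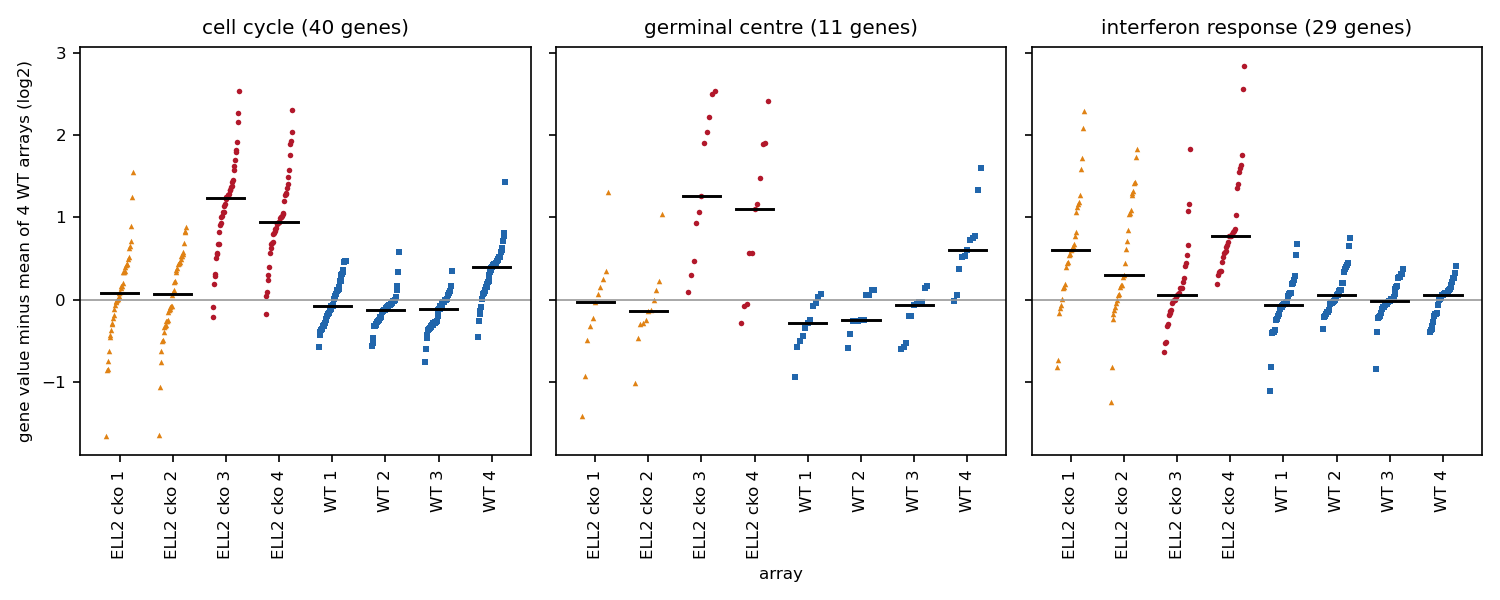
Each gene's value minus the mean of the 4 WT arrays (log2) for the members of 3 lists, with 1 column per array and a black bar at the median of the members. Cell cycle and germinal centre members lie highest in ELL2 cko replicates 3 and 4 and next in WT replicate 4; interferon response members lie highest in ELL2 cko replicate 4 and near 0 in replicate 3.

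Interferon response genes stood apart in ELL2 cko replicate 4 more than in replicate 3. Of 29 measured, 28 lay above all WT arrays in replicate 4 (96.6%), where 20.6% of all genes did, and 9 in replicate 3 (31%), where 20.7% of all genes did. In both together 9 lay above and 0 below, where 9.62% of all genes lay above. All 29 stood at or above the median gene in WT, and of genes at that level 14.3% lay above in both together. The list mean was 7.58 and 8.38 in replicates 3 and 4 and 8.07 and 7.93 in replicates 1 and 2, against 7.34, 7.53, 7.42 and 7.44 in WT. The median difference was 0.40 for both replicates together, 0.06 without replicate 4 and 0.77 without replicate 3. In all 4 ELL2 cko arrays 3 of the 29 lay above all WT arrays, Ifit1, Bst2 and Ifi44, where 2.86% of all genes did. Ifi44 was at 7.72, 7.37, 7.47 and 8.48 in the 4 ELL2 cko arrays, against 4.81, 6.38, 5.54 and 5.81 in WT (2.34 ± 0.42 for replicates 3 and 4, adjusted p = 0.136). Bst2 (tetherin), which holds budding virus at the cell surface, was at 11.49, 10.61, 10.28 and 10.80, against 8.80, 9.31, 9.47 and 9.21 in WT (1.35 ± 0.22, adjusted p = 0.107). By contrast Usp18, which dampens interferon signalling, was at 6.66 in replicate 3 and 8.42 in replicate 4, against 6.46 to 7.06 in WT. Oas2, a sensor enzyme for double-stranded RNA, was at 6.43 and 8.36, against 6.37 to 6.96 in WT.

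Markers of macrophages moved with replicate 4. The mean of 22 monocyte and macrophage genes was 5.64 in replicate 3 and 6.39 in replicate 4, and 9.15 and 9.11 in replicates 1 and 2, against 5.55 to 5.67 in WT. In replicate 4, 15 of the 22 lay above all WT arrays (68.2%), beside 20.6% of all genes. In replicate 3, 4 of the 22 did (18.2%), which is near the 20.7% of all genes. Slc40a1 (ferroportin), the iron exporter of red pulp macrophages, was at 4.99 in replicate 3 and 8.0 in replicate 4, against 4.04 to 5.25 in WT. C1qa, a complement subunit made by macrophages, was at 5.43 and 6.63, against 5.06 to 5.21 in WT. Lyz2 had no gap, at 5.20 and 6.17 against 5.47 to 6.59 in WT. The dendritic cell list mean was 6.24 and 6.58 in replicates 3 and 4 against 6.01 to 6.22 in WT, and Bst2 is on that list too. Of its 13 measured genes, 4 lay above all WT arrays in both replicates, Itgax, Flt3, Xcr1 and Bst2, beside 9.62% of all genes. In WT 9 of the 13 stood at or above the median gene, a level at which 14.3% lay above. Replicate 3 alone lay above for 4 of the 13 and replicate 4 alone for 8, beside 20.7% and 20.6% of all genes. The part of macrophages and dendritic cells in the interferon values was not tested.

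The Bst2 promoter window (chr8:71537473-71537722, minus strand, GRCm38.p6, RefSeq) is shown because Bst2 was higher in all 4 ELL2 cko arrays and its window holds the interferon response letters. Capitals mark GAAA, any 2 bases and GAAA again, searched on both strands, here 2 matches that overlap.
Bst2: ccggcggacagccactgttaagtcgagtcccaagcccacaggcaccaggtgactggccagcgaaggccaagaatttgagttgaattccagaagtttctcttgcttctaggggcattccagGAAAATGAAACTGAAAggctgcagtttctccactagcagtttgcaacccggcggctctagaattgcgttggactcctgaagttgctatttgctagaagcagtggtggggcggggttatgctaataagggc
The motif was in 10 of 26 promoter windows of interferon response genes (38.5%), beside 2.98% of all 32851 promoters. The window of Ifi44 held 0 matches.

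Respiratory chain genes were higher by small amounts. In replicates 3 and 4, 17 of 37 measured lay above all WT arrays and 1 below, where 9.62% and 7.92% of all genes did, and the median difference was 0.37. All 37 stood above the median gene in WT, and of genes at that level 14.3% lay above. Atp5b, the catalytic subunit of ATP synthase, was at 13.40 and 13.41 against 12.05, 12.06, 12.47 and 12.78 in WT (1.06 ± 0.22, adjusted p = 0.2). Sdhb, a subunit of succinate dehydrogenase, was at 11.70 and 11.74 against 10.35, 10.85, 11.05 and 11.35 in WT (0.82 ± 0.25, adjusted p = 0.438). Cox4i1, a subunit of cytochrome c oxidase, was at 11.55 and 11.46 against 10.33, 10.68, 10.68 and 11.09 in WT (0.81 ± 0.20, adjusted p = 0.311). Cox7c ran the other way, at 8.42 and 8.36 against 8.53 to 9.79 in WT. Replicates 1 and 2 had a median difference of 0.04 in this list. Of 17 heat shock genes, 14 stood at or above the median gene in WT, a level at which 14.3% of genes lay above. Of the 17, 5 lay above all WT arrays in replicates 3 and 4 and 0 below. They included the chaperone Hspa8, at 15.68 and 16.01 against 14.94 to 15.42 in WT (0.67 ± 0.18, adjusted p = 0.374), and its partner Dnaja1 (0.58 ± 0.14, adjusted p = 0.302). Cytosolic ribosomal protein genes had a median difference of 0.17, with 6 of 45 above and 1 below. In WT 44 of the 45 stood at or above the median gene, and the count above was near the 14.3% of genes at that level.

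Genes that define B cells were at WT values in replicates 3 and 4. Of 22 measured, 0 lay above all WT arrays and 3 below, with a median difference of -0.03, while the median difference of replicates 1 and 2 was -1.32. The 3 were Ralgps2, a guanine nucleotide exchange factor, at 13.63 and 13.88 against 14.05 to 14.62 in WT, Ms4a1 (CD20) at 15.71 and 15.90 against 15.93 to 16.08, and Fcmr, the receptor for IgM, with a difference of -0.15 ± 0.13. Mature B cell factors and receptors leaned lower. Of 33, 8 lay below all WT arrays in replicates 3 and 4 and 1 above, where 7.92% of all genes lay below. All 33 stood at or above the median gene in WT, and the share below among genes at that level was not counted. Ikzf3 (Aiolos), a zinc finger factor of mature B cells, was at 14.29 and 14.07 in replicates 3 and 4 and 13.65 and 13.67 in replicates 1 and 2, against 14.90, 15.18, 15.10 and 14.66 in WT (-0.78 ± 0.18, adjusted p = 0.246). Il21r, the receptor for interleukin-21, was at 11.86 and 11.80 against 12.23, 12.32, 12.46 and 12.46 in WT (-0.54 ± 0.14, adjusted p = 0.321). The others were Foxp1, Ikzf1, Tcf12, Cd55, S1pr1 and Btla, with differences of -0.63 to -0.27. Irf8, a factor of B and myeloid cells, was the 1 above, at 12.67 and 12.43 against 12.02 to 12.38 in WT.

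Of 17 genes of immature and transitional B cells, 5 lay below all WT arrays in replicates 3 and 4 and 0 above, where 7.92% of all genes lay below. In WT 11 of the 17 stood at or above the median gene, and the share below at that level was not counted. Cd93, a surface marker of newly formed B cells, was at 6.27 and 5.79 against 6.95, 6.53, 6.73 and 6.99 in WT (-0.77 ± 0.19, adjusted p = 0.311). Tmem108 was at 6.12 and 5.88 against 6.80, 6.67, 6.81 and 6.35 (-0.66 ± 0.17, adjusted p = 0.336). Rag1, a subunit of the recombinase of antigen receptor genes, was at 4.05 and 4.11 against 4.41 to 5.05 in WT, below the median gene in every array. In both lists the median differences were small, -0.11 and -0.08, so the lower values were those of a few members. Genes of the marginal zone and B-1 subsets had 1 of 20 above and 1 below. Their list mean was 8.09 in replicate 3 and 8.67 in replicate 4, against 8.32 to 8.65 in WT. Taken singly, replicate 3 lay above all WT arrays for 2 of the 20, where 20.7% of all genes did. Replicate 4 did so for 7, where 20.6% of all genes did. Dtx1 was at 9.36 and 10.05 in replicates 3 and 4 against 9.99, 11.30, 12.42 and 11.87 in WT (-1.69 ± 0.57, adjusted p = 0.511), with overlap. B cell receptor signalling genes had 2 of 29 above and 1 below, and MHC class II genes 3 of 17 above and 1 below. Immediate early genes had 4 of 40 above and 2 below, quiescence genes 1 of 20 above and 3 below, and BCL2 family genes 1 of 17 above and 0 below. Beside the counts for replicates 3 and 4 together, 9.62% of all genes lay above and 7.92% below.

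**Figure D4:**
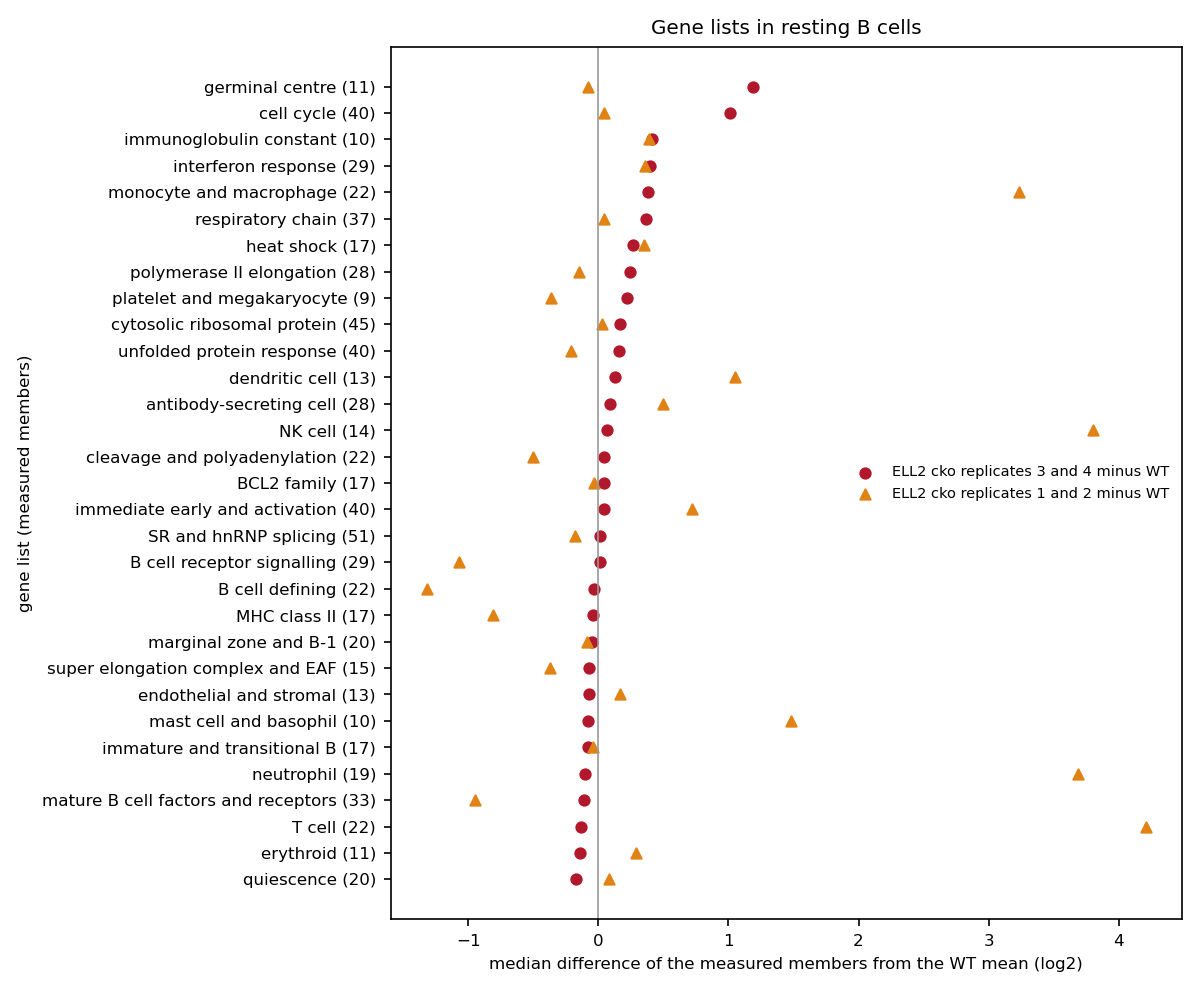
Median difference from the WT mean (log2) of the measured members of 31 gene lists, for ELL2 cko replicates 3 and 4 (circles) and replicates 1 and 2 (triangles), with the number of measured members in brackets. Germinal centre and cell cycle lists lie near 1 in replicates 3 and 4 and near 0 in replicates 1 and 2, and T cell, NK cell, neutrophil and monocyte lists lie above 3 in replicates 1 and 2 only.

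The genes lowest in replicates 3 and 4 relative to WT, among those that met the naming rule and did not overlap WT, were of mixed function. Mid1, a microtubule-bound ubiquitin ligase, was at 5.89 and 5.90 in replicates 3 and 4 and 6.38 and 6.45 in replicates 1 and 2, against 9.07, 7.11, 6.96 and 7.56 in WT (-1.78 ± 0.51, adjusted p = 0.416). Erdr1 was at 10.47 and 10.39 in replicates 3 and 4 against 12.64, 11.79, 11.17 and 12.20 in WT (-1.52 ± 0.35, adjusted p = 0.25), while replicates 1 and 2 lay within the WT range at 12.11 and 11.91. Both genes lie at the pseudoautosomal end of the mouse sex chromosomes. Zfp456, a zinc finger gene, was at 5.41, 5.10, 5.97 and 6.43 in the 4 ELL2 cko arrays against 8.28, 6.77, 7.52 and 8.08 in WT (-1.47 ± 0.38, adjusted p = 0.336). Cecr2, a bromodomain protein of chromatin remodelling, was at 8.75 and 8.61 in replicates 3 and 4 against 9.78, 9.78, 10.58 and 9.15 in WT (-1.14 ± 0.33, adjusted p = 0.417).

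Atp1b1, the beta subunit of the sodium pump, was at 6.66 and 6.31 in replicates 3 and 4 against 7.18 to 8.06 in WT (-1.10 ± 0.24, adjusted p = 0.228), and Ly6k, a lipid-anchored surface protein, at 5.66 and 6.09 against 6.61 to 7.15 (-1.0 ± 0.20, adjusted p = 0.187). In replicates 1 and 2 these 2 genes lay above WT instead, at 9.10 and 9.43 for Atp1b1 and 9.6 and 9.98 for Ly6k. Ier5, an immediate early gene, was at 7.47 and 7.09 against 7.75 to 8.90 (-1.07 ± 0.29). Erp27, a protein of the endoplasmic reticulum, was at 8.48 and 8.47 against 9.21, 9.26, 10.12 and 9.13 (-0.95 ± 0.27), and Cd55b, a complement inhibitor, at 10.31 and 9.90 against 10.71 to 11.55 (-0.94 ± 0.25). The tenth was the pseudogene Rps15a-ps6, at 10.65 and 10.49 against 10.92 to 11.95, whose probes may read its parent gene. Means of replicates 3 and 4 lay over 1 log2 unit above WT for 174 genes (0.557%) and over 1 unit below for 37 (0.118%).

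**Figure D5:**
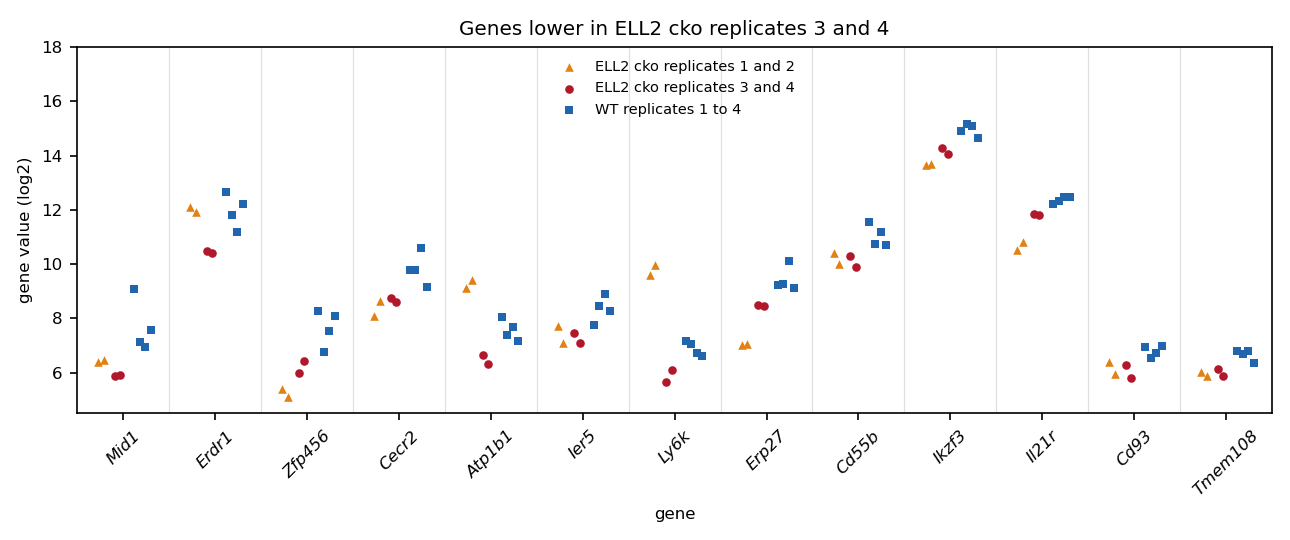
Gene values (log2) of 13 genes that were lower in ELL2 cko replicates 3 and 4 (circles) than in all WT arrays (squares), with ELL2 cko replicates 1 and 2 (triangles), each point 1 array. For Atp1b1 and Ly6k the triangles lie above the squares, and for Erdr1 they lie among them.

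Some differences held in all 4 ELL2 cko arrays, of which replicates 1 and 2 carried T cell and neutrophil RNA and replicate 4 had higher macrophage markers than WT. All 4 lay above all 4 WT arrays for 2.86% of genes and below for 1.94%. Besides Ighg2b, the lowest adjusted p of this comparison, 0.0621, was reached by Igtp, Nt5e and Tfdp1, which were picked out after their values were seen. Igtp, an interferon-induced GTPase, was at 10.65, 11.20, 10.60 and 10.74 in ELL2 cko against 9.22, 9.53, 9.23 and 9.48 in WT, a difference of 1.43 ± 0.16 with all 4 arrays. Nt5e (CD73), an enzyme that makes adenosine, was at 6.61, 6.89, 6.41 and 6.59 in ELL2 cko against 5.07, 5.11, 4.97 and 5.54 in WT, and Tfdp1, a partner of E2F factors, at 10.66, 10.98, 10.76 and 10.63 against 9.74, 9.38, 9.46 and 9.62. Among genes with at least 3 exon regions and an unadjusted p under 0.01 in this comparison, predicted genes left out, the largest differences were those of Slpi, Ighg2b, Ifi44l, Ifi44 and C1qa above WT, and Zfp456, Erp27, Mid1, Cecr2 and Trim7 below. Ifi44l was at 7.80, 8.64, 7.65 and 8.58 in ELL2 cko against 4.12, 7.21, 4.07 and 6.31 in WT, so that the WT arrays themselves were far apart. Trim7, a ubiquitin ligase, was at 10.09, 10.27, 11.25 and 11.54 in ELL2 cko against 11.76, 11.73, 12.36 and 12.09 in WT.

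What came from ELL2 cko replicates 1 and 2 was of another scale. Their mean lay over 1 log2 unit above WT for 1217 genes (3.89%) and over 1 unit below for 887 (2.84%). Among genes with at least 3 exon regions, predicted genes left out, the 10 widest gaps above the other 6 arrays were all in genes of T cells, NK cells, neutrophils or other myeloid cells. S100a8, S100a9 and Trac, with 2 exon regions each, had gaps of 10.70, 9.42 and 9.21. Ngp, a neutrophil granule protein, was at 15.95 and 16.47 in replicates 1 and 2 and 4.42 and 4.29 in replicates 3 and 4, against 3.97 to 4.84 in WT. Cd8b1, a coreceptor chain of killer T cells, was at 15.07 and 14.49, and 3.86 and 4.14 in replicates 3 and 4, against 4.39 or lower in WT. The others were Il1b, Nkg7, Il7r, Cd3e, Lyz2, Ltf, Cd3d and Clec7a, 11.51 or higher in both replicates.

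By list, 20 of 22 T cell genes, 14 of 14 NK cell genes, 18 of 19 neutrophil genes and 19 of 22 monocyte and macrophage genes were over 1 unit above WT in the mean of replicates 1 and 2. The 2 T cell genes that were not, Cd2 and Ccr7, are genes that B cells express too. Erythroid (5.33 and 5.34 in list mean, against 4.96 to 5.05 in WT) and platelet genes (5.31 and 5.11 against 5.44 to 6.85) were not among the high lists, nor were endothelial and stromal genes (5.43 and 5.21 against 5.14 to 5.32). The mean of 10 mast cell and basophil genes was 5.82 and 5.74 against 4.22 to 4.46 in WT. With at least 3 exon regions, the 10 widest gaps below the other 6 arrays were those of Ffar1, Lynx1, Apobec3, Cd40, Rasgrp3, Cd72, Chst3, Arpc5l, Trim34a and Hhex, from 2.85 for Ffar1 to 1.75 for Hhex. Ighd, with 2 exon regions, had a gap of 2.24. Cd72, an inhibitory coreceptor of B cells, was at 9.87 and 10.19 in replicates 1 and 2 and 12.68 and 12.56 in replicates 3 and 4, against 12.15 to 12.88 in WT. Cd40, the receptor for T cell help, was at 9.21 and 9.14 and at 11.38 and 11.52, against 11.29 to 11.77 in WT. Replicates 1 and 2 were picked out by measured markers, so these values carry no test.

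Single exon regions and junctions beyond Ell2 gave no called row. The row test over 580167 rows called 0 in replicates 3 and 4 against WT, with 6.86% of rows at an unadjusted p under 0.05. The test of rows relative to their gene (the splicing index, 330855 rows) also called 0, with 6.44% at an unadjusted p under 0.05. Outside Ell2 the 5 rows with the smallest p in the row test were junctions of Kif11, Dnm3, Ighg2b, Pdzd2 and Dst. The Pdzd2 junction was at 4.83 and 6.05 in replicates 3 and 4 and 11.52 and 11.30 in replicates 1 and 2, against 13.70, 12.90, 11.52 and 13.33 in WT. The Dst junction was at 7.54 and 8.16 in replicates 3 and 4 and 11.61 and 11.10 in replicates 1 and 2, against 3.86 to 4.71 in WT. By the splicing index the 5 were rows of Stil, Cacul1, Cenpp, Zfp972 and Kif23. The Cacul1 junction was at 3.74 and 3.96 in replicates 3 and 4, near the background rows with medians of 3.02 to 3.24. It was at 6.42 and 6.74 in replicates 1 and 2, against 6.97, 6.51, 6.85 and 6.06 in WT. The index of replicates 3 and 4 differed from WT by -3.01 ± 0.27 (adjusted p = 0.766 by limma). Stil, Cenpp and Kif23 act in cell division, and for Stil and Kif23 the gene value lay above all WT arrays in replicates 3 and 4 while the row did not. Genes of SR and hnRNP splicing factors had 6 of 51 above WT and 5 below in replicates 3 and 4, and cleavage and polyadenylation factors 2 of 22 above and 1 below. Their median differences were 0.01 and 0.04, and 9.62% of all genes lay above and 7.92% below.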

How the data were processed

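RNA of splenic B cells was measured on arrays with probe sets for single exons and junctions, 1 array per sample. The deposited values are log2 values that the authors made with SST-RMA in Affymetrix Expression Console, per the labels' sample descriptions. Software versions, build and row coordinates are not given in the sources used here, and there are no detection calls. Rows with 1 gene symbol were kept (580167 of 725678), symbols were updated through RefSeq tables (1584), and each gene's value was the median of its exon regions (31265 genes). All columns were matched to samples, with 0 unmatched. Groups were tested with limma 3.58.1 (lmFit, eBayes, R 4.3.3) with Benjamini-Hochberg adjustment over all genes or rows, with a threshold of 0.05, and tested on simulated data first. Tables were handled in Python 3.11.15 with pandas 2.3.3. Errors are standard errors of the fit, and the number of arrays limits precision.

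Members and gene lists were chosen with earlier results of these data known. Named genes were Ell2 and its paralogues, the immunoglobulin constant genes, the 10 largest differences each way among genes with at least 3 exon regions, an unadjusted p under 0.01, groups that do not overlap and the higher mean at or above the median gene, without predicted genes, variable segments, Xist and Y genes. For all 4 arrays 5 were named each way by the same conditions, and for replicates 1 and 2 the 10 widest gaps each way, also with at least 3 exon regions, which narrows the rule as first written. Each list gave up to 4 members. Further members named were chosen after their values were seen. The 31 lists covered 9 other cell types and 22 B cell, transcription and general processes, and 67 listed genes had no value and were not analysed here. Alternatives are in the closing section.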

Additional observations from a re-analysis of the deposited data

Results flagged for a closer look

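In 11 of 176 groups of 4 arrays examined, 1 array lay far from the other 3, and chance flags about 1 in 20 such groups. WT replicate 4 was far above the other WT arrays for Ighg2b (11.83), Mybl1 (9.18) and Plk1 (8.81), WT replicate 3 for Erp27 (10.12), and WT replicate 1 for Cd55 (17.33). WT replicate 2 was below the other WT arrays for Ell2 (10.87) and Slc40a1 (4.04). WT replicate 1 was below them for Ifi27l2a (5.40), an interferon-induced gene that stood at 7.68 and 9.07 in ELL2 cko replicates 3 and 4. Among the ELL2 cko arrays, replicate 2 was lowest for Elob (9.20), replicate 1 highest for Tcf12 (9.99) and replicate 3 lowest for Usp18 (6.66).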

How the results depend on the processing

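With ELL2 cko replicates 3 and 4 against WT the count of called genes was 0, and it was 3 with all arrays of the series in the fit, 73 with array weights, 83 after centring on B cell genes, 5 with at least 3 exon regions, 5 without dim genes, 2 after quantile normalisation, 3 with a robust trend and 1 with sex as a covariate. Centring on the median gene, the mean of exon regions and a minimum change of 0.5 left it at 0. Leaving out single arrays gave 0 to 71, with 29 without WT replicate 1 and 71 without WT replicate 4. With all 4 ELL2 cko arrays the counts were 4 with all arrays, 3 with weights, 456 after centring on B cell genes, 4 with at least 3 exon regions, 3 with the mean of exon regions, and 0 to 1 on leaving out single arrays (1 without WT replicate 4). The replicate block gave 47 calls for replicates 3 and 4. Same-numbered arrays had correlations of 0.203, 0.036, 0.161 and 0.103 in their deviations from group means, and arrays of unlike number ran from -0.238 to 0.184. The ELL2 cko mean held replicates 1 and 2 with their RNA of other cells, so these correlations cannot settle whether arrays are paired. The numbers were not taken as pairs.

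Of 1933 values of named genes and rows, 1785 kept their direction and side of the threshold, 112 passed it and 36 changed sign. The difference of Ell2 was 0.28 with all 4 arrays after centring on B cell genes. The other sign changes were for replicates 3 and 4 against WT. Over the fits that left out 1 array each, the difference ran between -0.28 and 0.14 for Ell2, -0.25 and 0.20 for Ell3, -0.05 and 0.47 for Bcl6, -0.30 and 1.64 for Oas2, -0.93 and 0.73 for Jchain, -0.07 and 0.17 for Prdm1, -0.07 and 0.25 for Xbp1, -0.02 and 0.10 for Irf4, -0.67 and 0.31 for Lyz2, -0.18 and 0.13 for Tk1, and -0.05 and 0.11 for Cd79a. With the replicate block it was 0.05 for Ighd, -0.05 for Bcl6, -1.54 for Jchain, -0.29 for Prdm1, -0.14 for Xbp1, 0.15 for Tk1 and -0.05 for Cd79a. The mean of exon regions gave -0.01 for Prdm1, -0.08 for Irf4, 0.15 for Lyz2 and 0.04 for Tk1. Array weights gave -0.36 for Jchain, -0.01 for Prdm1 and 0.04 for Tk1, and quantile normalisation gave -0.05 for Irf4 and -0.07 for Cd79a. The cause was not tested. Row and splicing index tests called 0 in each alternative run.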
